A study of Mus musculus with 4 samples.

Results

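GDNF and its relatives neurturin, artemin and persephin are secreted proteins that keep neurons alive and guide growing axons. Each ligand binds a GFRα co-receptor that is anchored in the membrane by a lipid, and the pair then engages the receptor tyrosine kinase RET. GDNF prefers GFRα1, neurturin GFRα2, artemin GFRα3 and persephin GFRα4, and NCAM, a neural cell adhesion molecule, can take the place of RET as a partner of GFRα1. In pancreatic cancer this family is known as a route by which nerves attract tumour cells. Its transcripts are therefore of interest in cells from mouse models in which perineural invasion was described. The study reports that some mice of these models lacked such invasion, and the status of the tumours used here is not given.

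The 10 genes described here, 4 ligand genes, 4 co-receptor genes and the receptor genes Ret and Ncam1, were chosen by name. All 10 were measured among 19938 genes on the array, each by 1 transcript cluster, which is a set of probes summarised into 1 value. RNA came from 4 lines of cultured mouse pancreatic tumour cells that received no treatment, with 1 array per line. The 2 TPAC lines, K459 and TCPA18654, carry Ela-TGFa, Ptg1a+/CRE, Trp53fl/fl and p65fl/fl. These alleles are designed for expression of a TGF-α transgene and for loss of p53 and the NF-κB subunit RelA/p65. Whether the cultured cells show that expression and loss was not examined here. The 2 TPC lines, TPC18645 and TPC20223, carry the same alleles without p65fl/fl. The transgene is driven by the elastase promoter of acinar cells and the Cre by a promoter of the pancreatic lineage (the study's p48-Cre, in a spelling of its own in the labels). Mouse ages were not used here, and whether each line stems from a mouse of its own is not stated in the labels, so a p-value covers no more than the spread among these 4 lines.

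The values are log2 signals made by RMA, a method that subtracts background and gives all arrays a common distribution, with array medians between 7.19 and 7.26. TPC20223 stood apart from the other lines. The mean of 7 ductal epithelial genes, such as keratin genes, was 7.38 in TPC20223. It was 12.25 in K459, 11.27 in TCPA18654 and 11.09 in TPC18645. Of the 7 genes 6 were lowest in TPC20223, among them Krt19 at 6.08 and Cdh1, the E-cadherin gene, at 6.96. Sox9 was not, with 10.89 there, against 11.56, 10.14 and 10.21 in K459, TCPA18654 and TPC18645. The mean of 8 fibroblast genes was highest in TPC20223, at 9.61, against 8.65, 8.12 and 8.23 in K459, TCPA18654 and TPC18645. Of these 8 genes 6 peaked there, among them Lum, whose signal was low in every line and at most 4.72. Dcn did not, with 9.35 there, against 8.57, 10.99 and 11.03 in K459, TCPA18654 and TPC18645. Thy1 did not either, with 7.23 there, against 8.86 in K459, where it was highest. In RNA from a whole culture, fewer cells of a type and less RNA per cell cannot be told apart. The group differences, list counts and spans are therefore given with and without TPC20223, and the part that its low epithelial and high fibroblast signals play in them was not tested.

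Sequence upstream of the start sites is shown for the ligand gene whose signal differed most between lines, Gdnf, and for Nrtn and Gfra1, which lay above background in every line. The windows hold the 250 bases before each start (RefSeq, GRCm38.p6), and 6 of the 10 genes matched an entry, with 8 windows in all. Gdnf has 2 start sites on the plus strand, at chr15:7809798-7810047 and chr15:7813477-7813726. Nrtn lies on the minus strand at chr17:56757549-56757798 and Gfra1 on the minus strand at chr19:58455399-58455648. Capitals mark a TATAAA or CCAAT box or a match to the κB motif, the site bound by RelA/p65, whose gene carries the p65fl/fl alleles in TPAC lines.
Gdnf, first start: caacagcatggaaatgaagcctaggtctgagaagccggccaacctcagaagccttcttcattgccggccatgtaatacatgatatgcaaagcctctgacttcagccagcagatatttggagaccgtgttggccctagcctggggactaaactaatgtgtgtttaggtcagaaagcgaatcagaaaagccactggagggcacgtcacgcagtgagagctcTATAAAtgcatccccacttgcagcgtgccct
Gdnf, second start: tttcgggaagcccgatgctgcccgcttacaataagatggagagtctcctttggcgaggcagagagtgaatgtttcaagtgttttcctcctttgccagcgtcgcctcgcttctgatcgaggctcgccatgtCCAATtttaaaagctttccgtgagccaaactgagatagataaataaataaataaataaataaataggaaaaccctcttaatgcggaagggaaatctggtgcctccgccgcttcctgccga
Nrtn: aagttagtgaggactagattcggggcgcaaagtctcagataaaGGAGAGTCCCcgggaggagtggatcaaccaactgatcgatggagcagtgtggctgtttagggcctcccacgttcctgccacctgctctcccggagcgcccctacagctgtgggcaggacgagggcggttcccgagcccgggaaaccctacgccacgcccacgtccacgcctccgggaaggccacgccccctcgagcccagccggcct
Gfra1: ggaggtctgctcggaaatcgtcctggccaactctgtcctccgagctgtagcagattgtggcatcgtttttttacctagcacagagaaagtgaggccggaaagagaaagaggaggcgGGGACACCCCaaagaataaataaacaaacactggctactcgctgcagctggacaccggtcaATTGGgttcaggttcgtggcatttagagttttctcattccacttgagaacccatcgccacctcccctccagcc

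The first Gdnf window carries TATAAA with its first base 31 bases before the start, a box found on either strand in 12.4% of all 32851 windows of this length, and the second carries CCAAT, found in 33.8%. The κB motif was searched on both strands and occurs in 3.9% of all windows. It occurs in neither Gdnf window and in 4 of the 8 windows of the family, those of Nrtn, Gfra1, Pspn and 1 of the 2 of Gfra4. In Gfra1 the capitals ATTGG are CCAAT on the other strand. These matches describe letters and not bound sites.

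How near the family lay to background depended on the level used. The deposited values carry no detection call, so 2 sets of genes served as a gauge on each array. The 95th percentile of 1194 olfactory and vomeronasal receptor genes, which are used in sensory neurons of the nose, was between 6.25 and 6.46, and 75.2% of all genes exceeded it in at least 1 line. All 10 family genes exceeded this level in at least 1 line and 8 in all 4. The exceptions were Artn, at 6.37, and Gfra2, at 6.32, in TCPA18654, where the level was 6.46. The second gauge was chosen after the data were seen and is stricter: the 95th percentile of 70 genes restricted to tissues such as retina, testis, muscle and lens, between 7.40 and 7.5 and exceeded by 58.1% of all genes.

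By the stricter level 6 of the 10 genes stood above background in at least 1 line. Nrtn, Gfra1 and Ncam1 did so in all 4 lines, and Gdnf, Gfra2 and Gfra4 in TPC20223 alone. Artn, Pspn, Gfra3 and Ret did so in none and are called near background below. With liver genes taken out of the second set, because the albumin gene Alb had signals of 12.77 in TCPA18654 and 12.47 in TPC18645, the number was again 6. Of these, 5 were shared, Pspn, above the level in K459 alone, taking the place of Gfra4. Gdnf then exceeded the level in K459, TCPA18654 and TPC20223, and Gfra2 in K459 and TPC20223. Passing in TPC20223 alone thus depended on the liver genes for both. A probe's brightness depends on its sequence too, so a signal under these levels does not show that a transcript is missing.

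**Figure D1:**
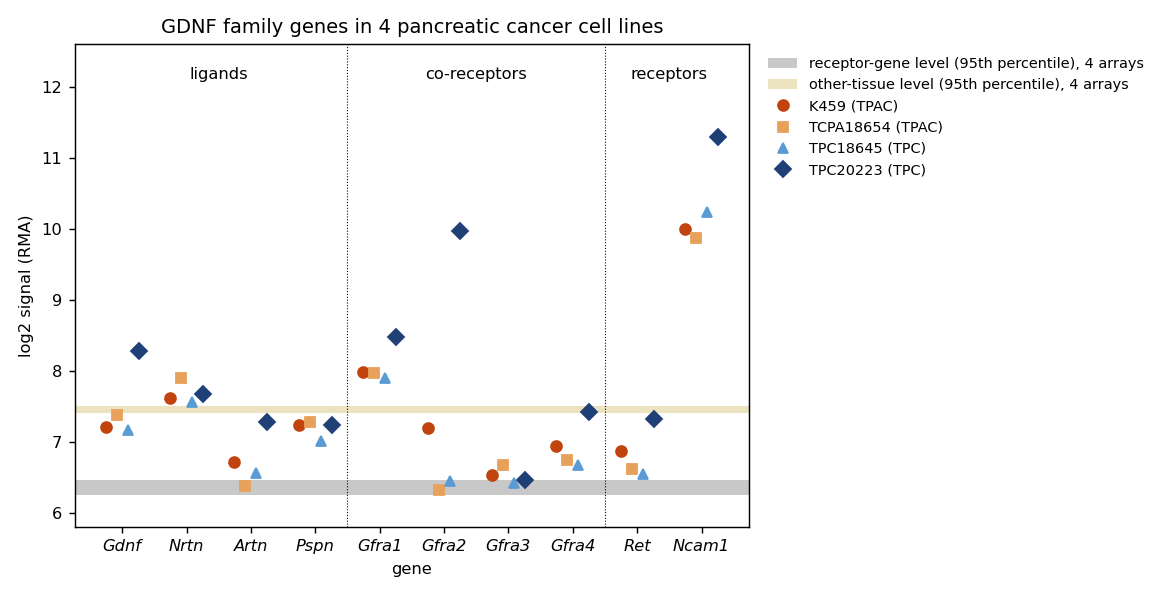
Log2 signal (vertical axis) of the 10 family genes (horizontal axis) in the 4 lines; each point is 1 array, and the bands give the range over arrays of the 2 background levels (receptor genes 6.25 to 6.46, genes of other tissues 7.40 to 7.5). TPC20223 holds the highest point in 7 of 10 genes, most clearly in Gfra2 (9.96) and Ncam1 (11.29).

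Among the ligands, Gdnf had log2 signals of 7.21 in K459 and 7.38 in TCPA18654, against 7.17 in TPC18645 and 8.28 in TPC20223. The first 3 lines lay within 0.21 of each other and TPC20223 lay 0.90 above the next. Nrtn, the neurturin gene, had signals of 7.62 and 7.89 in the TPAC lines K459 and TCPA18654, against 7.56 and 7.67 in TPC18645 and TPC20223. Its groups overlapped, and its span over the lines was 0.33.

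Artn, the artemin gene, had signals of 6.71 and 6.37 in K459 and TCPA18654, against 6.56 and 7.28 in TPC18645 and TPC20223. It was thus near background in all lines but had its highest value, by 0.57, in TPC20223. Pspn, the persephin gene, had signals of 7.24 and 7.28 in K459 and TCPA18654, against 7.01 and 7.23 in TPC18645 and TPC20223. Both TPAC lines lay above both TPC lines, but by no more than 0.27 and with a gap of 0.01 between K459 and TPC20223.

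The co-receptor gene Gfra2 had the widest span of the family. Its log2 signals were 7.19 in K459 and 6.32 in TCPA18654, against 6.44 in TPC18645 and 9.96 in TPC20223, so that TPC20223 lay 2.77 above the next line. K459 came next in order, 0.75 above TPC18645, and with 1 array per line no spread is at hand to set that step against. The preferred ligand of this co-receptor, neurturin, did not share the pattern: Nrtn differed by 0.11 between TPC20223 and TPC18645, where Gfra2 differed by 3.52.

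Gfra1, the co-receptor gene for GDNF, had signals of 7.98 and 7.96 in K459 and TCPA18654, against 7.90 and 8.47 in TPC18645 and TPC20223. The first 3 lines lay within 0.08, and TPC20223 exceeded the next by 0.49, in the same line in which Gdnf was highest. Gfra3, the artemin co-receptor gene, was near background and nearly flat, with 6.53 and 6.67 in the TPAC lines K459 and TCPA18654, against 6.41 and 6.46 in TPC18645 and TPC20223. Gfra4, which encodes the persephin co-receptor, had 6.94 and 6.74 in K459 and TCPA18654, against 6.67 and 7.41 in TPC18645 and TPC20223, and its value in TPC20223 was at the stricter background level of that array (7.41).

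Ret, the kinase gene through which the 4 ligands signal, was near background. Its signals were 6.87 and 6.61 in the TPAC lines K459 and TCPA18654, against 6.55 and 7.32 in the TPC lines TPC18645 and TPC20223, a span of 0.77. Ncam1 was the only member well above both levels in every line, with 10.00 and 9.87 in K459 and TCPA18654, against 10.23 and 11.29 in TPC18645 and TPC20223. Both TPAC lines lay below both TPC lines, and TPC20223 exceeded TPC18645 by 1.06. Endocrine cells make NCAM in the normal pancreas, and 0 of 6 measured neuroendocrine genes, among them Chga and Syp, exceeded the stricter level in any line. Of 6 measured Schwann cell genes 3 exceeded it, Mbp, Erbb3 and Ngfr, whereas S100b did not, with signals between 6.12 and 6.32. Of 8 neuron genes 3 exceeded it, Tubb3, Snap25 and Stmn2. Over all genes the share above this level in at least 1 line was 58.1%. TPC20223 was highest for 5 of the 8, against 28.1% of all genes, and of these 5 only Stmn2 exceeded the level. Stmn2 had signals of 9.63 and 6.41 in K459 and TCPA18654, against 5.41 and 10.3 in TPC18645 and TPC20223. Elavl4, Nefl and Nefm were below both levels in every line. Tubb3 was highest in TPC18645, at 9.09, with 7.65 in TPC20223. Snap25 was highest in K459, at 7.71, and lowest in TPC20223, at 6.36. The part of these cell types in the Ncam1 signal was not tested.

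The comparison of TPAC with TPC asked whether the family differs between tumour cells with the p65fl/fl alleles and those without them. No member was called by limma, which fits all 19938 genes together, with the adjusted p at most 0.05 and the log2 difference at least 0.58 in size, and no gene of the array was (0.0% of all genes, against 0 of 10 members). With the p left unadjusted, 84 genes of the array, or 0.421%, and 0 members met these limits. Taken as means, 3 members had higher and 7 had lower signals in TPAC, with a median log2 difference of -0.21 against 0.015 over all genes. Since each group has 2 lines, only 6 assignments of the labels exist, and an exact two-sided permutation test of a single gene cannot go below p = 0.333.

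Gfra2 averaged 6.76 ± 0.62 in TPAC and 8.20 ± 2.49 in TPC lines (SD, n = 2 each), so that TPAC minus TPC was -1.45 (log2, standard error 1.33; limma, adjusted p = 0.989). Ncam1 averaged 9.94 ± 0.09 in TPAC and 10.76 ± 0.75 in TPC lines (SD, n = 2 each), with -0.83 for the difference (standard error 0.41; limma, adjusted p = 0.989). Gdnf averaged 7.30 ± 0.12 in TPAC and 7.73 ± 0.78 in TPC lines (SD, n = 2 each), with -0.43 for the difference (standard error 0.43; limma, adjusted p = 0.989). For all 3 genes the spread between the TPC lines was several times that between the TPAC lines. The differences of the other 7 members ran from -0.38 for Artn to 0.17 for Gfra3, with standard errors between 0.13 and 0.32.

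The direction hung on TPC20223. With it left out, 8 members had higher and 2 had lower signals in TPAC, with a median log2 difference of 0.18 against -0.015 over all genes. Without this line the difference of TPAC from TPC turned positive for Gdnf (0.13), Gfra1 (0.07), Gfra2 (0.32), Gfra4 (0.17) and Ret (0.19), and was -0.02 for Artn and -0.30 for Ncam1. Without TPC18645 the differences were -0.99 for Gdnf, -3.21 for Gfra2 and -1.36 for Ncam1, and these too were not called (limma, adjusted p of 0.184, 0.174 and 0.134). Ncam1 and Artn had a negative sign whichever line was left out, and Nrtn, Pspn and Gfra3 a positive one.

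**Figure D2:**
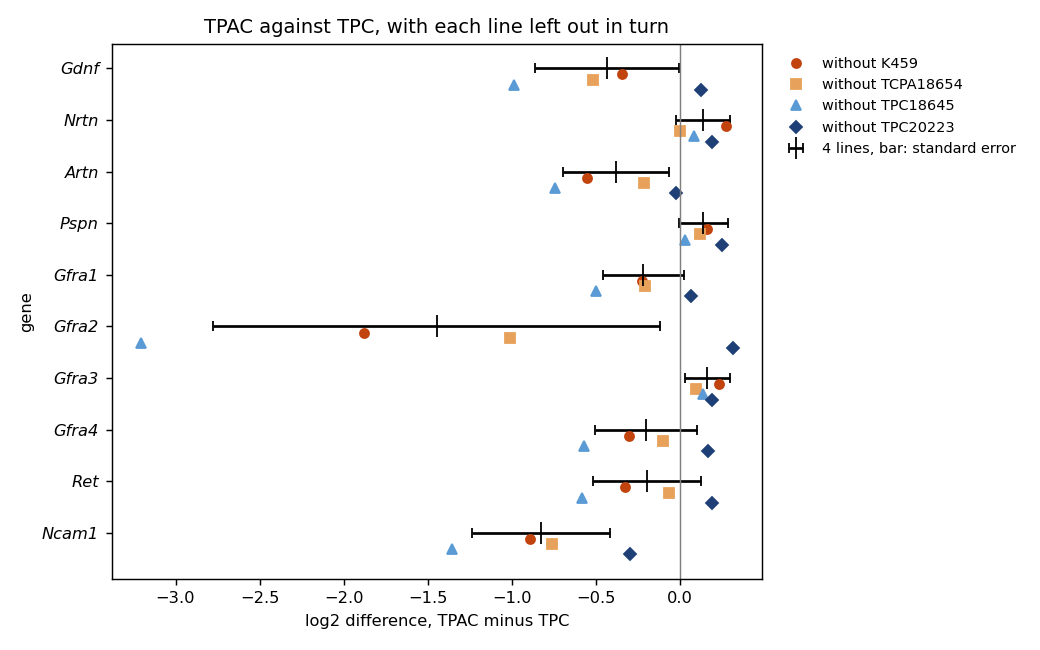
Log2 difference, TPAC minus TPC (horizontal axis), of each family gene (vertical axis); black ticks are the 4 lines together with bars for limma's standard error, and coloured points leave out 1 line each. The points without TPC20223 lie between -0.30 and 0.32, whereas Gfra2 reaches -3.21 without TPC18645.

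Signals of the 2 groups did not overlap in 3 members. Pspn and Gfra3, both near background, were higher in both TPAC lines than in both TPC lines, a pattern that 13.7% of all genes showed. Ncam1 was lower in both, as were 13.3% of all genes. The counts of 2 and 1 in 10 members lie near these shares and set the family apart from other genes in neither direction.

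Set line against line, every log2 difference of 1 or more among the members involved TPC20223. This line exceeded TPC18645 in 10 of 10 members, against 43.1% of all genes, and by a log2 difference of 1 or more in 3 members, Gdnf, Gfra2 and Ncam1, against 5.97% of all genes. The median of the 10 differences was 0.73, against -0.05 for all genes. The TPAC lines K459 and TCPA18654 differed from each other by no more than 0.87, a value reached by Gfra2, and 0 members passed a log2 difference of 1, as did 3.87% of all genes.

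TCPA18654 and TPC18645, which carry different genotypes, were alike across the family. Their differences, TCPA18654 minus TPC18645, ran from -0.36 for Ncam1 to 0.33 for Nrtn, and no member passed a log2 difference of 1, which 0.271% of all genes did. K459 minus TPC18645 ran from -0.23 for Ncam1 to 0.75 for Gfra2, with 0 members past 1 and 4.34% of all genes. Against TPC20223, K459 was lower by 1 or more in Gdnf, Gfra2 and Ncam1, with 5.79% of all genes, and TCPA18654 in Gfra2 and Ncam1, with 6.33%. For pairs with TPC20223 the shares past 1 count only the direction of the members, and for the other pairs both directions. In either direction TPC20223 differed by 1 or more from TPC18645 in 2243 genes, from K459 in 2174 and from TCPA18654 in 2170, of 19938. These pairs share lines, and each line is 1 array, so they carry no test.

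Over the 4 lines the signal spanned 1 or more in 3 of 10 members, Gfra2 (3.64), Ncam1 (1.42) and Gdnf (1.11), against 15.9% of all genes. Over the 3 lines other than TPC20223 these spans were 0.87, 0.36 and 0.21, and 0 of 10 members reached 1, against 4.96% of all genes. TPC20223 was the single highest line for 7 of 10 members, against 28.1% of all genes. TCPA18654 was highest for the other 3, Nrtn, Pspn and Gfra3. The share for TPC20223 was counted after its values had been seen.

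The genes whose profile over the 4 lines came nearest to these 3 members were found by the Euclidean distance between log2 signals centred on each gene's own mean, over 14991 other genes above the receptor-gene level in at least 1 line. Nearest to Gfra2 were Ptchd4 (distance 0.111), Nid2 (0.201), the gene of a basement membrane protein, and Cspg4b (0.223). Ptchd4 had signals of 7.83 and 7.08 in K459 and TCPA18654, against 7.10 and 10.72 in TPC18645 and TPC20223. Nearest to Ncam1 were Zfp9 (0.0412), Rnf157 (0.0458) and Fli1 (0.05), an ETS transcription factor gene, and nearest to Gdnf were Mtbp (0.0433), Med12l (0.0555) and Tmem268 (0.0589). Each profile has 4 points, and the lists describe shape only.

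The wider pathway was read from 49 genes, of which 45 were measured. None was called by limma, and 20 had higher and 25 lower mean signals in TPAC, with a median log2 difference of -0.06. Without TPC20223, 23 were higher and 22 lower, with a median of 0.005. Both TPAC lines lay above both TPC lines in 3 of 45 and below them in 8, against the 13.7% and 13.3% of all genes given above. The signal spanned 1 or more over the lines in 20 of 45 genes, against 15.9% of all genes. Without TPC20223 it did so in 12 of 45, against 4.96%. TPC20223 was the highest line in 14 of 45, near the 28.1% of all genes.

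Of 16 measured genes for adaptors and effectors of RET, 15 exceeded the stricter background level in at least 1 line. In all 4 lines 12 did so. Over all genes the shares were 58.1% and 9288 of 19938. Shc1, Grb2, Sos1 and Ptpn11, the core of the route to RAS, spanned 0.40, 0.24, 0.40 and 0.38 over the lines. By mean 7 of the 16 were higher and 9 lower in TPAC, with a median difference of -0.08, and without TPC20223 the counts were 5 and 11 and the median -0.11. Grb10, an adaptor gene that is imprinted in the mouse, had signals of 9.22 and 6.32 in K459 and TCPA18654, against 6.28 and 12.37 in TPC18645 and TPC20223, the widest span of the list (6.09, and 2.94 without TPC20223). Dok5, a docking protein gene, had 5.82 and 5.88 in the TPAC lines K459 and TCPA18654, against 5.95 and 9.73 in TPC18645 and TPC20223, so that it exceeded background in TPC20223 alone. Grb7 went the other way, with 10.28 and 8.79 in K459 and TCPA18654, against 8.75 and 6.34 in TPC18645 and TPC20223.

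Of 9 genes that end or restrain RET signalling, 9 exceeded the stricter level in at least 1 line and 8 in all 4. The shares of all genes are those given above. By mean 6 were higher and 3 lower in TPAC, with a median difference of 0.31. Without TPC20223, 5 were higher and 4 lower, with a median of 0.06. K459 was the highest line for 6 of the 9 genes, against 22.6% of all genes. TPC20223 was the lowest for 5 of the 9, against 7734 of all 19938 genes. Spry4, a feedback inhibitor gene, had signals of 9.93 and 7.62 in K459 and TCPA18654, against 7.77 and 8.59 in TPC18645 and TPC20223. Spry2, its relative, had 9.69 and 8.29 in K459 and TCPA18654, against 8.59 and 7.65 in TPC18645 and TPC20223. Ptprj, a receptor phosphatase gene, had 11.25 and 10.13 in K459 and TCPA18654, against 10.04 and 9.62 in TPC18645 and TPC20223. Both TPAC lines were above both TPC lines for Ptprj, whereas they overlapped for the Sprouty genes.

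Etv4 and Etv5, transcription factor genes that respond to RET in the developing mouse kidney, were also highest in K459. Etv5 had signals of 9.80 and 7.89 in K459 and TCPA18654, against 8.21 and 9.14 in TPC18645 and TPC20223, and Etv4 had 8.77 and 7.32 in K459 and TCPA18654, against 7.41 and 8.18 in TPC18645 and TPC20223. Of the known regulators of Ret, Sox10 and Phox2a were below the stricter level in every line, with signals of at most 7.09 and 6.73. Pax3 had 7.24 and 8.14 in K459 and TCPA18654, against 8.78 and 8.42 in TPC18645 and TPC20223, both TPAC lines being lower. The list as a whole had 3 genes higher and 5 lower in TPAC and a median difference of -0.12, with 5 higher and 3 lower and a median of 0.03 without TPC20223.

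Genes of the NCAM route followed the pattern of Ncam1 and Gfra2 in part. St8sia2, which encodes an enzyme that adds polysialic acid to NCAM, had signals of 6.17 and 6.22 in K459 and TCPA18654, against 6.0 and 8.04 in TPC18645 and TPC20223, and passed background in TPC20223 alone. Fgfr1, whose product binds NCAM, had 10.37 and 9.25 in K459 and TCPA18654, against 9.09 and 11.77 in TPC18645 and TPC20223. Fyn, the kinase gene downstream of NCAM, had 9.24 and 9.86 in K459 and TCPA18654, against 9.79 and 10.30 in TPC18645 and TPC20223. By mean, 1 of the 5 measured genes of this route was higher and 4 were lower in TPAC, against 3 and 2 without TPC20223. The other polysialyltransferase gene, St8sia4, and the paralog Ncam2 were below both background levels in every line.

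Sdc3, which encodes syndecan-3, a heparan sulfate proteoglycan that binds these ligands, had signals of 8.57 and 9.28 in K459 and TCPA18654, against 9.41 and 10.97 in TPC18645 and TPC20223, both TPAC lines being lower. Sorl1, a sorting receptor gene, had 8.0 and 6.68 in K459 and TCPA18654, against 6.59 and 7.97 in TPC18645 and TPC20223, so that each genotype held 1 high and 1 low line. Ext1, of heparan sulfate synthesis, spanned 1.02 and was highest in TPC20223. Of the distant relatives, Gfral was below both background levels in every line. Gas1, which encodes a GFRα-like membrane protein, had 10.08 and 8.11 in K459 and TCPA18654, against 7.85 and 11.49 in TPC18645 and TPC20223.

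**Figure D3:**
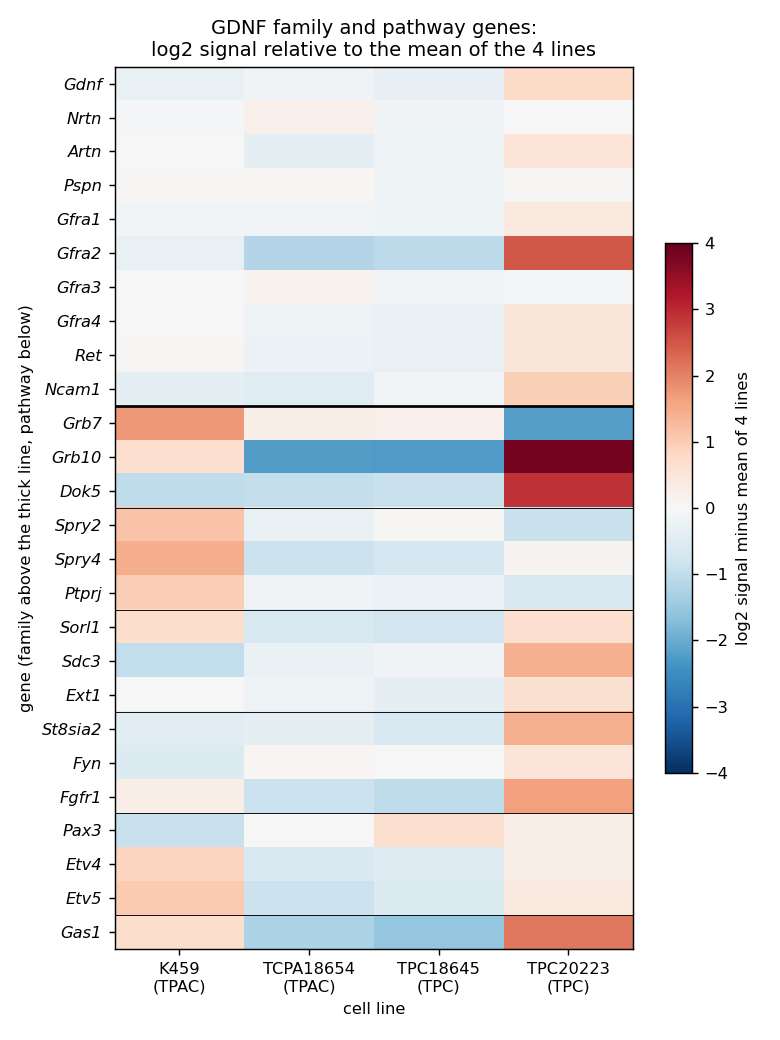
Log2 signal of the 10 family genes (above the thick line) and of 16 pathway genes (below it, thin lines between the lists) in the 4 lines, as the distance from each gene's mean over the lines (colour). TPC20223 is the reddest column for Gfra2, Ncam1, Grb10, Dok5, Fgfr1 and Gas1, and K459 for Spry2, Spry4, Ptprj, Etv4 and Etv5.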

How the data were processed

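Total RNA of 4 cell lines was hybridised to Affymetrix Mouse Gene 1.0 ST arrays, 1 per line. The values deposited by the authors are on the log2 scale after RMA; Affymetrix Expression Console 1.4 is named in the submitters' processing notes. The sources used here do not say which arrays were normalized together. RMA gives all arrays 1 distribution, which hides differences in total RNA, and precision is limited by having 4 arrays.

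Of 28941 transcript clusters, 21789 carry 1 gene symbol in the platform annotation. Where a gene had several, the cluster of highest mean signal was kept, which left 19938 genes and no filter on low signal. TPAC minus TPC was fitted with limma 3.58.1 in R 4.3.3 (lmFit, then eBayes), and two-sided p-values were adjusted over all genes by the Benjamini-Hochberg method. A call needed an adjusted p of at most 0.05 and a log2 difference of at least 0.58. The fit was run on simulated data in which every gene and line had the same spread. These data hold a line that stands apart, so that run checks the code and not the power here. The members, lists and background sets were chosen with earlier results of these data known. Pathway genes were named where the signal spanned 1 or more and passed the receptor-gene level, at most 3 per list by span. Pathway genes given as flat or near background, and single marker genes, were named after their values were seen. Alternatives were other normalizations, filters, tests and background levels, and leaving out each line. Of the 49 listed pathway genes, 4 are not analysed here.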

Additional observations from a re-analysis of the deposited data

How the results depend on the processing

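No member and no gene of the array was called under any of 11 alternatives (arrays set to 1 median or normalized by cyclic loess, clusters averaged per gene, 2 filters on low signal, an intensity trend, the methods' test and each line left out), with a smallest adjusted p of 0.0913, without TPC18645. At an unadjusted p under 0.05 the 84 genes became 15 by the methods' test, 50 among genes above the 40th percentile, and, with 1 line left out, 19 without K459, 395 without TCPA18654, 2854 without TPC18645 and 115 without TPC20223. The sign of each member's difference was the same in the 66 values from alternatives that keep all lines. Most of these alternatives leave the difference itself unchanged, so their signs could not differ. Only cyclic loess altered it, for Gdnf from -0.43 to -0.45. After cyclic loess the signals of the 2 groups did not overlap in 2 members, against 3 as reported and 3 with arrays set to 1 median. With 1 line left out, the difference ran from -0.99 to 0.13 for Gdnf, from -0.50 to 0.07 for Gfra1, from -3.21 to 0.32 for Gfra2, from -0.57 to 0.17 for Gfra4 and from -0.58 to 0.19 for Ret, each positive only without TPC20223. With 1 array left in a group, that line is taken to vary like the other group.

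Of 8 background levels, the 95th percentile of genes of other tissues, chosen after seeing the data, was passed by 6 members, with or without liver genes, against 10 for receptor genes and 9 or 10 for the rest. With a log2 difference of 0.58 in place of 1, 6 members differed between TPC20223 and TPC18645 and 6 between TCPA18654 and TPC20223, and 1 between K459 and TCPA18654 and 1 between K459 and TPC18645. The cause was not tested. The pathway counts and spans without TPC20223 were added after seeing the data. Artn, Gfra3, Gfra4 and Ret were removed by the filter at the 40th percentile. No paired analysis was possible because the labels give no replicate numbers.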
